A study of Mus musculus with 8 samples.

Results

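Chromosomes 1 to 19 of the mouse have the centromere at one tip, and in the mm10 build the unassembled centromeric block takes up the first 3 Mb of each. The regions described here are those of the authors' 2 deposited lists of differential 5-hydroxymethylcytosine that begin in the next 5 Mb, that is on chromosomes 1 to 19 with a start below 8 Mb. They were selected by position alone. There are 449 of them, out of 12594 regions in all: 316 in the list of higher signal in Ogt iKO cells and 133 in the list of lower signal. Of all listed regions, 68.1% are in the higher list. The other 12071 autosomal regions serve for comparison.

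The study used mouse embryonic stem cells that carried Ogt fl/fl in every group. Ogt iKO cells were cultured for 6 days with 4-OHT (4-hydroxytamoxifen), and control cells were cultured without it. Each condition has 2 CMS-IP and 2 input samples, 8 in all, and the labels do not say whether replicates came from separate cultures. Per the labels, cell sorting served to remove feeder fibroblasts, and YFP-positive cells were kept from the treated cultures. The labels give CD90.2 as the marker of the stem cells and CD326 as that of the feeders, the reverse of how these antigens are usually used, so which cells were kept is not certain. The Cre line that answers to 4-OHT is not given in the sources used here. Spike-ins were added for CMS-IP. The lists give a chromosome, a start and an end for each region and no fold change, score or value per sample. Read depth, the size of each change and the spread between replicates are therefore unknown, and the direction of a region is the authors' call.

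The TET enzymes oxidise 5-methylcytosine to 5-hydroxymethylcytosine, an intermediate of demethylation, and OGT, the transferase that puts O-GlcNAc on proteins, binds TET proteins. CMS-IP converts 5-hydroxymethylcytosine to cytosine 5-methylenesulphonate with bisulfite and pulls down the DNA that carries it. Next to mouse centromeres lies pericentromeric heterochromatin built of major satellite repeats. It is mostly missing from the assembly, and the assembled sequence that follows ranges from ordinary gene-bearing DNA to blocks of duplicated genes.

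Sequence was at hand for promoter windows, taken from RefSeq on GRCm38.p6, whose chromosomes are those of mm10. Each window runs from 250 bases before to 50 bases after a transcription start. Of the 449 regions, 4 overlapped such a window by at least 1 base. The covered stretches are shown because the CpG sites in them are where 5-hydroxymethylcytosine is found in most mammalian cells. They are written 5′ to 3′ on the strand of the gene, and capitals mark each CpG.
Gm13391, higher, chr2:6465829-6466128, plus strand: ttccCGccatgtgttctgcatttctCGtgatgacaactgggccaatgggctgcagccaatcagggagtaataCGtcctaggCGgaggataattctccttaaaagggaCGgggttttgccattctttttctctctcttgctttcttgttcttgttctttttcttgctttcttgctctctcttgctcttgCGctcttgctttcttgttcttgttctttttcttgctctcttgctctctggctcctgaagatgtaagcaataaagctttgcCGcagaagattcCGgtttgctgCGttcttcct
Gm52720, lower, chr4:3200250-3200549, minus strand: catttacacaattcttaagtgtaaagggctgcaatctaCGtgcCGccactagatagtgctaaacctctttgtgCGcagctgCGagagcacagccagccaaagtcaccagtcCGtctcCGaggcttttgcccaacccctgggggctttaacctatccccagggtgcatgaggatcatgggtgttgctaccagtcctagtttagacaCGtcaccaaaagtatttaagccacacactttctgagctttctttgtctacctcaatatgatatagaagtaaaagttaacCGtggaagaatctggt
Gm40261, higher, chr5:4273204-4273326, plus strand: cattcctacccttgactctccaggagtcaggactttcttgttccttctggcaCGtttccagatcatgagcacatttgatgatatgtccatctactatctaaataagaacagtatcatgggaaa
Gm34155, higher, chr17:3562296-3562368, plus strand: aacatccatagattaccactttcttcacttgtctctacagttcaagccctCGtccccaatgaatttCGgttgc

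The windows of Gm13391 and Gm52720 lay wholly inside a region, with 300 covered bases each. Gm13391, a long noncoding RNA gene, had a higher region of 2835 bp over its start, and its window held 9 CpG. Gm52720, a predicted protein-coding gene, had a lower region of 721 bp, and its window held 8 CpG. These counts are near the middle of the RefSeq promoters, whose median is 7 CpG per window: 45.8% of 32851 windows held at least 9, and 48.6% at least 8. The regions at the long noncoding RNA genes Gm40261 and Gm34155 reached 123 and 73 bases into their windows and covered 1 and 2 CpG.

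The Gm13391 window shares sequence with other promoters. At least 1 run of 25 bases of it, on either strand, recurred in promoter windows of 25 other genes on 17 chromosomes. Of those 26 windows, 0 were overlapped by a region of either list. Listed regions overlap few promoter windows anywhere: 4 of 423 near centromeric ends and 141 of 11620 elsewhere reached one, for 32851 windows in all. A count of 0 among 26 windows therefore does not set these windows apart. The Gm52720 window shared such a run with 1 other gene, and the windows of Gm40261 and Gm34155 with 0. Which repeat family the Gm13391 sequence belongs to was not determined here. A lower region of 504 bp lay 1803 bases beyond the higher one, inside the same gene, so both lists were represented at this locus.

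Regions of both lists occurred near the centromeric end of all 19 autosomes. Higher regions made up 70.4% of the 449 (95% Wilson interval 66.0 to 74.4%, counting error only), beside 68.1% of all listed regions and 68.3% of the other autosomal regions (67.5 to 69.1%). The interval of the centromeric share holds both other shares. By sequence covered, higher regions took 252.8 kb and lower regions 75.08 kb, so 77.1% of the covered bases were higher, against 77.0% on the rest of the autosomes. A single region of 38197 bp on chromosome 9 makes up 15.1% of the higher sequence. Without it higher regions cover 214611 bp, so the near match of these shares depends on that region. There were 3.33 higher and 1.40 lower regions per Mb, against 3.57 and 1.66 per Mb in the rest, and regions were sparser than in the rest of the same chromosome on 11 of 19 autosomes. In the first 2.5 Mb alone there were 3.83 higher and 1.56 lower regions per Mb, so for higher regions the direction turned with the length of the window.

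**Figure D1:**
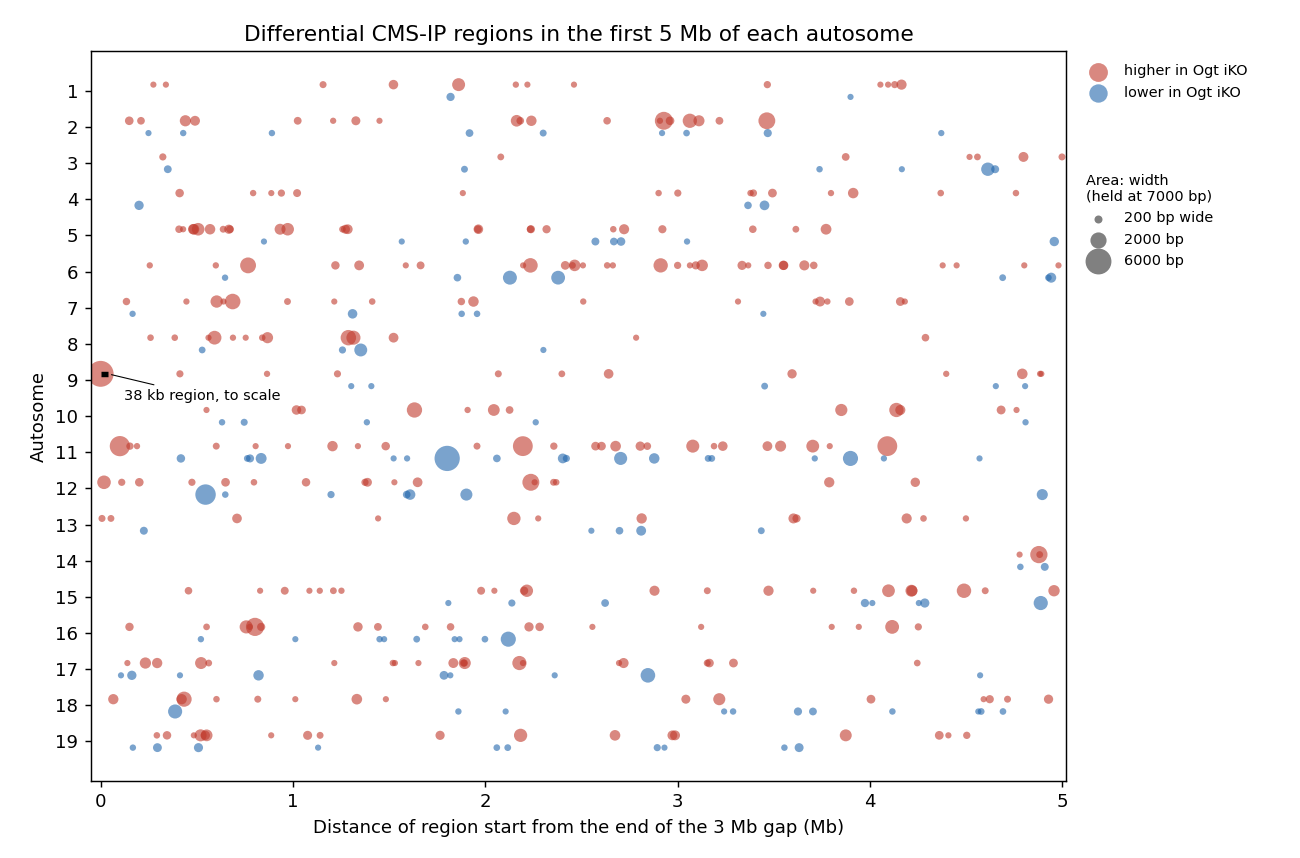
Each point is a region, placed by the distance of its start from the end of the 3 Mb gap (horizontal axis, Mb) and by autosome (vertical axis); red is higher and blue lower in Ogt iKO, and the point's area grows with width up to 7000 bp. Regions of both colours are scattered over the 5 Mb of most autosomes, the 38197 bp region sits at the very start of chromosome 9, and chromosome 14 is empty until its last stretch.

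Autosomes differed in how many regions they held. Chromosome 11 held 43, followed by chromosome 6 with 38 and chromosome 5 with 33, and the median over autosomes was 24. The smallest numbers were 5 on chromosome 14, 13 on chromosome 3 and 15 on chromosome 1. Higher regions outnumbered lower ones on 19 of 19 autosomes.

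The share of higher regions ran from 53.8% on chromosome 3 (7 of 13, Wilson interval 29.1 to 76.8%) to 86.7% on chromosome 1 (13 of 15, 62.1 to 96.3%). Chromosome 6 had 31 higher and 7 lower regions, a share of 81.6% (66.6 to 90.8%), and the rest of chromosome 6 had 65.4%. Chromosome 11 had 25 higher and 18 lower regions, a share of 58.1% (43.3 to 71.6%), and its rest had 68.8%. The background share of 68.1% lies within the interval of 19 of 19 autosomes. The share was above that of the rest of the same autosome on 11 of 19, so no common direction was seen.

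**Figure D2:**
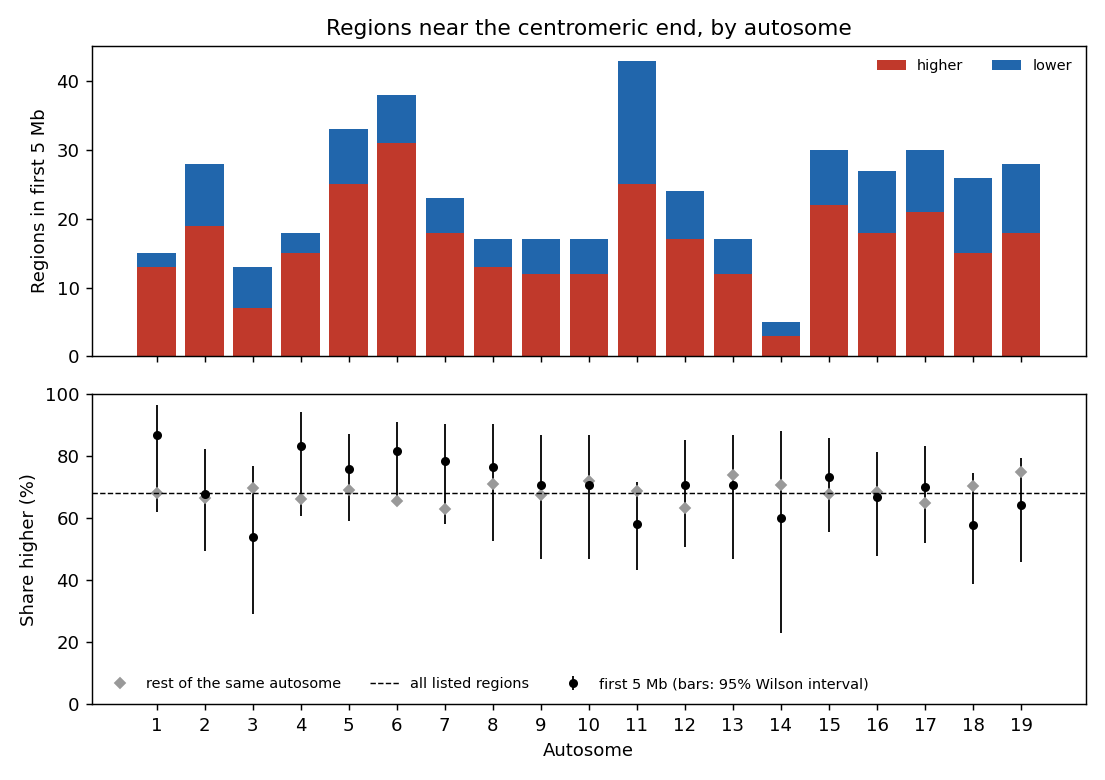
Top: number of higher (red) and lower (blue) regions in the first 5 Mb of each autosome. Bottom: share of higher regions in percent, with black points for the first 5 Mb and bars for the 95% Wilson interval, grey diamonds for the rest of the same autosome and a dashed line at 68.1% for all listed regions; the wide bars, such as 23.1 to 88.2% on chromosome 14, cross the dashed line on 19 autosomes.

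Chromosome 14 had the longest stretch without a region, a feature picked out after the values had been seen. Its first region began at 7778649, so 4.78 Mb passed without a region of either list, whereas the longest empty stretch on the other autosomes was between 0.475 Mb (chromosome 11) and 1.66 Mb (chromosome 3). In this stretch 164 genes start, 77 of them protein-coding. Of these genes, 156 (95.1%) carry a placeholder symbol (Gm or LOC with a number), against 45.1% of the genes in the same part of the other autosomes. The part of these genes in the empty stretch was not tested. Gm10044, a predicted gene, held the first regions beyond it, a higher one of 200 bp and a lower one of 249 bp.

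Within the 5 Mb, regions thinned out with distance from the gap. Successive 1 Mb steps held 111, 96, 90, 77 and 75 regions over the 19 autosomes, and 492, 435, 369, 341 and 267 genes start in the same steps. Both numbers were lower at each further step, and whether they are linked was not tested. The share of higher regions was 75.7% in the first step (66.9 to 82.7%) and between 65.6 and 72.7% in the other 4, with overlapping intervals.

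Over a longer range, the first 5 Mb were set beside the 10 next 5 Mb steps, each present on all 19 autosomes. Their 449 regions fall within the 378 to 513 of the later steps. Their share of higher regions, 70.4%, also falls within the later range of 63.6 to 70.8%. The median widths fall outside the later ranges. The median of higher regions was 421 bp, and that of the 10 later steps was between 491 and 585 bp. The median of lower regions was 283 bp, against 292 to 363 bp. In the successive 1 Mb steps of the first 5 Mb, the higher median was 377.5, 427, 506, 547 and 326 bp. The lower median was 282, 245, 414, 291 and 249 bp. Neither rose or fell steadily with distance from the gap. Higher medians of 506 and 547 bp lie inside the later range, and the lower median of 414 bp lies above its range. Other measures of width, taken over both lists together and not by list, fall within the later ranges. Regions of exactly 200 bp made up 17.8%, against 13.8 to 20.4% in the later steps. Those of 2 kb or more made up 4.68%, against 3.7 to 5.74%.

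**Figure D3:**
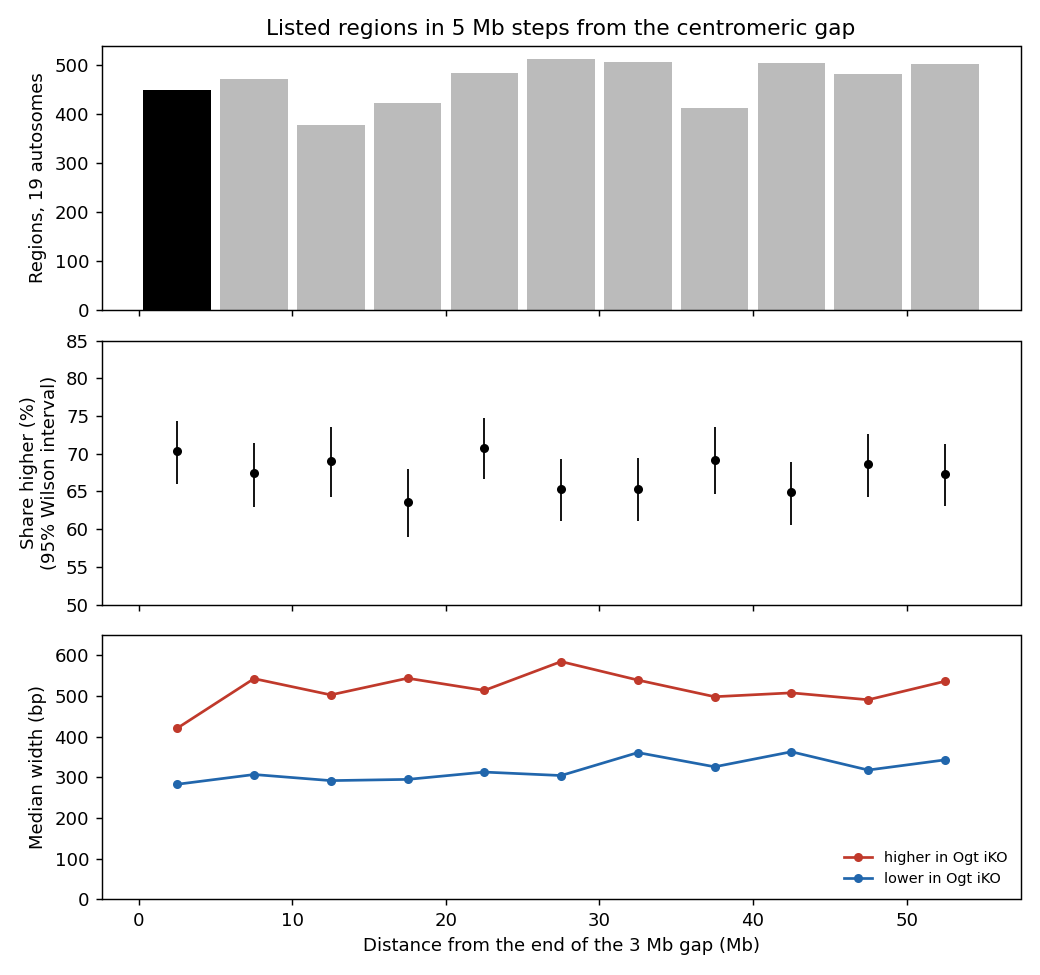
Horizontal axis: distance from the end of the 3 Mb gap in Mb, in 11 steps of 5 Mb. Top: number of listed regions over 19 autosomes, with the first step in black; middle: share of higher regions in percent with 95% Wilson intervals, on an axis from 50 to 85%; bottom: median width in bp of higher (red) and lower (blue) regions, where the first step is the lowest point of both lines, at 421 and 283 bp.

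Set against all other autosomal regions, higher regions near the centromeric end had a median width of 421 bp (interquartile range 223 to 882.5 bp, n = 316) against 546 bp (267 to 959.5 bp, n = 8243) in the rest of the autosomes. Lower ones had a median of 283 bp (211 to 523 bp, n = 133) against 321 bp (222 to 619 bp, n = 3828). The median of the higher regions was below that of the rest of the same chromosome on 15 of 19 autosomes, and that of the lower regions on 9 of 19. The order-statistic 95% interval was 365 to 513 bp for the higher median and 245 to 342 bp for the lower one. The lower interval holds the 321 bp of the rest, and the higher interval does not hold 546 bp.

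No region of either list is narrower than 200 bp, and 17.8% of the 449 were exactly that wide (80 regions, Wilson interval 14.6 to 21.6%), against 14.6% of the others (14.0 to 15.2%). Single later 5 Mb steps reached up to 20.4%, as given above. Regions of 2 kb or more made up 5.06% of the higher ones (16 of 316, 3.14 to 8.07%) against 6.94% in the rest. They made up 3.76% of the lower ones (5 of 133, 1.62 to 8.5%) against 1.31% (0.992 to 1.72%).

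**Figure D4:**
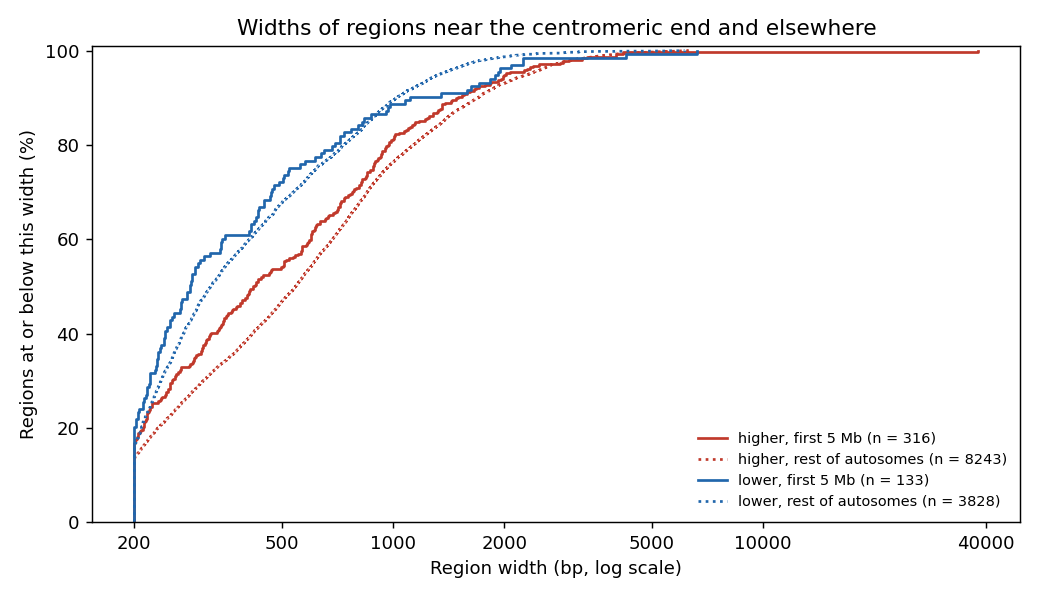
Share of regions in percent (vertical axis) at or below a given width in bp (horizontal axis, log scale), for higher (red) and lower (blue) regions in the first 5 Mb (solid) and in the rest of the autosomes (dotted). At 200 bp the solid lines stand at 16.8% (higher) and 20.3% (lower), above the dotted ones at 13.7 and 16.5%; the solid lower line falls below the dotted one by 1000 bp, and a single higher region reaches 38197 bp.

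The one region with an outlying width is the widest of either list. It was higher in Ogt iKO cells and spanned 38197 bp at chromosome 9, 3000104 to 3038300, starting 104 bp after the gap. It overlapped no annotated gene, and 368 bases separated it from Mir101c, a microRNA gene and the first annotated gene of the chromosome. Its width was 9.14 times that of the second widest higher region near a centromeric end, and it made up 15.1% of the sequence covered by them. Their mean width was 800.0 bp with it and 681 bp without it, while the median moved from 421 to 418 bp. No genome sequence or repeat annotation was used here, so whether it holds satellite repeats was not measured.

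Regions also lay before the first annotated gene on chromosomes 11, 12 and 13. They spanned 4178 bp at chromosome 11, 3100134 to 3104311, 1770 bp at chromosome 12, 3017656 to 3019425, and 321 bp at chromosome 13, 3007180 to 3007500. With the chromosome 9 region these are 4 regions, and 4 of 4 were higher, beside the 68.1% of all listed regions. The region closest to the gap was higher on 16 of 19 autosomes and lower on chromosomes 4, 17 and 19, which is read beside the same 68.1%. Its distance from the gap ranged from 104 bp on chromosome 9 to 551 kb on chromosome 10, and to 4780 kb on chromosome 14.

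The next widest higher regions lay on chromosomes 11 and 16. Widths of 4008 and 4006 bp were found in Adcy1 (chromosome 11, 7090886 to 7094893), the gene of a calcium-stimulated adenylyl cyclase, and in Kremen1 (chromosome 11, 5195577 to 5199582), which encodes a receptor for the Wnt inhibitor Dickkopf. The fifth, of 3345 bp at chromosome 16, 3802823 to 3806167, overlapped no gene. None of the 4 after the chromosome 9 region was among the 50 widest of the whole higher list, where they ranked between 57 and 130.

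Lower regions near the centromeric end included the widest of the whole lower list. It spanned 6638 bp in Nf2, the gene of the tumour suppressor merlin (chromosome 11, 4802071 to 4808708). The next, 4272 bp at chromosome 12, 3545689 to 3549960, overlapped no gene and ranked 6 of 4016. It was followed by 2248 bp in Ppl, the gene of the cell junction protein periplakin (chromosome 16, 5119948 to 5122195), 2245 bp outside genes at chromosome 11, 6899251 to 6901495, and 2080 bp in Snx9, the gene of an endocytic sorting nexin (chromosome 17, 5845927 to 5848006). Of the 10 regions named as the widest of each list, 5 were on chromosome 11.

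The regions were placed against RefSeq gene spans. The span table gives neither strand nor exons, so a gene end is either end of a span, and exons and introns are not separated. Midpoints inside a gene, more than 1 kb from any gene end, made up 53.2% of higher regions (168 of 316, Wilson interval 47.7 to 58.6%) and 54.1% of lower ones (72 of 133, 45.7 to 62.4%). Elsewhere on the autosomes these shares were 58.3 and 52.5%. Midpoints between genes made up 40.2% of higher regions (34.9 to 45.7%) against 33.8% elsewhere, and 33.8% of lower regions (26.3 to 42.2%) against 37.3% elsewhere. Higher regions were thus more often intergenic here than in the rest, with an interval that does not hold the other share.

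Midpoints within 1 kb of a gene end made up 6.65% of higher regions (21 of 316, 4.39 to 9.95%) and 12.0% of lower ones (16 of 133, 7.54 to 18.6%). Their intervals overlap, and the same shares elsewhere were 7.89 and 10.2%. Regions that overlapped an end of a protein-coding gene numbered 4. A lower region of 1712 bp did so at Il7, the interleukin-7 gene (chromosome 3, 7613652 to 7615363), one of 344 bp at Ctxn1 (chromosome 8, 4257598 to 4257941), which encodes a small membrane protein of cortical neurons, and the 721 bp one at Gm52720. A higher region of 821 bp did so at Purb, the gene of a single-stranded DNA-binding protein (chromosome 11, 6467371 to 6468191).

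Promoter windows were overlapped by few regions. The windows do not cover chromosome 18, and they cover 697 of the 846 protein-coding genes in the first 5 Mb of the other autosomes. Of the 423 regions on those autosomes, the 4 shown above are 0.946% (0.368 to 2.41%), against 1.21% (141 of 11620, 1.03 to 1.43%) of the regions elsewhere. Of the protein-coding genes, 1 had a covered window, Gm52720.

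Of 867 protein-coding genes that start in these 5 Mb stretches, 156 (18%) held at least 1 region, counting a midpoint inside the gene or up to 1 kb beyond it. Higher regions alone were found in 89, lower regions alone in 43, and both in 24. Genes with a region had a median span of 51.0 kb, and those without one 13 kb, so the genes with a region were the longer ones. A further 47 genes of other types held a region. Of the 449 regions, 184 (41.0%) overlapped no gene.

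Genes with 2 or more regions numbered 52 among the protein-coding ones. Cdk14, a cyclin-dependent kinase gene that acts in Wnt signalling (chromosome 5, 4803384 to 5380251), held the most, with 5 higher regions of 390 to 779 bp and 1 lower region of 220 bp. Cdk6, the kinase gene that drives cells out of G1 (chromosome 5, 3341004 to 3531008), held 5 higher and 0 lower regions in 190 kb, of 205 to 1498 bp. Rbfox1, a neuronal splicing factor gene of 1530 kb (chromosome 16, 5884793 to 7412480), also held 5 higher and 0 lower regions; 3 were 200 bp wide, and the others 346 and 1843 bp. Ppp6r3, which encodes a regulatory subunit of protein phosphatase 6, held 4 higher regions and 1 lower region in 121 kb on chromosome 19.

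Some genes had one direction throughout. Frmd4a, a gene of cell polarity (chromosome 2), and Klhl29, a gene of the kelch-like family (chromosome 12), each held 4 higher and 0 lower regions. Slc25a13, the gene of a mitochondrial aspartate-glutamate carrier, Pcmtd1, Ankrd36 and Usp29 each held 3 higher and 0 lower. Of the protein-coding genes with 3 or more regions, 22 in all, none held lower regions alone. These counts are read beside the 70.4% of higher regions among the 449. At that share, genes with 3 or more lower regions alone would be few and genes with higher regions alone common. The counts therefore do not set these genes apart.

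Others mixed directions. Egflam, the gene of the matrix protein pikachurin (chromosome 15), held 2 higher regions of 1316 and 1069 bp and 2 lower regions of 202 and 698 bp. Mpp7, a gene of epithelial polarity on chromosome 18, also held 2 of each. Lower regions were in the majority in Osbp2, an oxysterol-binding protein gene (1 higher, 3 lower), and in Znrf3, Mtmr3, Nudcd3 and Itsn2 (1 higher, 2 lower each). Znrf3 encodes a ubiquitin ligase that removes Wnt receptors, and Mtmr3 a phosphoinositide phosphatase. Osbp2, Znrf3, Mtmr3 and Nudcd3 lie on chromosome 11.

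Close neighbours were of equal or of opposite direction. Of 430 pairs of adjacent regions, the median distance between their edges was 106 kb, and 21 pairs had under 10 kb between them. Both regions were higher in 11 of these, both lower in 0 and opposite in 10. Over all 430 pairs these counts were 211, 37 and 182. The closest pair of equal direction lay 1002 bases apart on chromosome 6 outside genes, with widths of 739 and 711 bp. The closest opposite pair lay in Dtnb, the gene of dystrobrevin beta (chromosome 12), where 1098 bases separated a lower region of 253 bp from a higher region of 599 bp.

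Lists of genes were read against the 18% of protein-coding genes in these stretches that held a region. Genes with a region were the longer ones, as given above, and the lists were not matched for length. Of 6 genes in a list drawn up for LIF and related cytokines, 1 did. Lifr, the receptor that carries the LIF signal on which stem cell cultures depend, held a higher region of 1532 bp (chromosome 15, 7096993 to 7098524). The ligand genes Lif and Osm and the receptor gene Osmr held 0. The list also holds Gdnf and Ptger4, which are outside this family and likewise held 0.

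Of 12 genes in a list drawn up for DNA methylation and chromatin, 5 held a region. The list also holds Tulp4, Rb1cc1 and Yap1, which are not genes of these processes. Arid1b, a subunit gene of SWI/SNF remodellers, held higher regions of 1957 and 200 bp, and Ncoa1, a nuclear receptor coactivator gene, higher regions of 350 and 634 bp. Asxl2, a Polycomb-associated gene, held a higher region of 347 bp. Tulp4, a tubby-like gene and thus outside the list's theme, held higher regions of 319 and 585 bp. Zbtb2, the gene of a zinc finger transcription factor, held a lower region of 220 bp. Dnmt3a, the de novo methyltransferase gene, Crebbp and Kmt5b were among the 7 with 0 regions.

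Of 15 genes in or beside the imprinted clusters on chromosomes 6 and 7, 5 held a region. Peg3, the paternally expressed zinc finger gene, held a higher region of 201 bp, and its neighbour Usp29 higher regions of 850, 215 and 599 bp. On chromosome 6, Ppp1r9a held a lower region of 1882 bp, Asb4 a higher one of 603 bp and Pon3 a higher one of 2072 bp. Peg10 and Sgce, which share a promoter, held 0.

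Of 16 listed transcription factor genes of lineages, 2 held a region, both with higher regions alone. Esr1, the oestrogen receptor gene, held widths of 2304 and 217 bp, and Tox, a gene of lymphoid development, 974 and 218 bp. Sox17, Klf6 and Dlx5 were among the 14 with 0. Of 10 genes in a list of long genes, which mixes neuronal and other functions, 7 held a region; length was also greater among all genes with a region, as given above, and its part here was not tested. Besides Rbfox1, Cdk14 and Ppp1r9a these were Syne1, a nuclear envelope gene (higher, 1285 and 427 bp, and lower, 216 bp), Xkr4 (higher, 200 and 200 bp), Zfp804b (higher, 1035 bp) and the opioid receptor gene Oprm1 (higher, 1385 bp). The absence of a listed region says nothing of 5-hydroxymethylcytosine in a gene, because read depth is unknown.

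At the far limit of 8 Mb, the last regions counted were a higher one of 314 bp on chromosome 3, which began 845 bp before it, a higher one of 205 bp on chromosome 6, 19084 bp before it, and a lower one of 737 bp on chromosome 5, 40985 bp before it. The nearest ones left out were a lower one of 586 bp on chromosome 9, 6251 bp past the limit, and higher ones of 200 and 288 bp on chromosomes 16 and 13, 21302 and 24012 bp past it.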

How the data were processed

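The authors deposited 2 lists of positions on mm10, one for each direction of CMS-IP change. Bismark and MACS2 are named in the submitters' processing notes, without a role or a version. The differential test, its threshold, the handling of replicates, inputs and spike-ins, and whether reads with several possible positions were kept are not given in the sources used here. One letter in the names of the lists differs from the labels' Ogt iKO, and both were taken to mean the same cells. Groups were taken from the sample titles.

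Starts were read as 0-based and are printed 1-based. Regions were selected on their start, with the gap taken to end at 3 Mb. Gene spans came from a RefSeq table of GRCm38.p6 with 49997 genes, of which 402 were left out as lying off the assembled chromosomes 1 to 19, X and Y, judged for scaffolds by starts that run back along the table. The rest of an autosome ends at its last annotated gene or region. Window density counts all 5 Mb per autosome, 95.0 Mb in all. Shares have 95% Wilson intervals, which treat regions as independent and cover counting error only. Regions are not replicates, so no test was made, and a difference is described by its values and intervals.

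The members, gene lists and naming rule were chosen with earlier results of these data known. The rule named the 5 widest regions of each list, the first region of each autosome, the regions at the limit, protein-coding genes with 2 or more regions or with an overlapped end, and listed genes with a region. CpG counts, shared 25-base runs, the 1 Mb steps, the regions before the first gene and the chromosome 14 stretch were chosen after values had been seen. One gene that the rule names is not reported here. Gene lookups were checked on simulated data: 300 of 300 positions gave the class found by direct search. Python 3.11.15, numpy 2.4.6, pandas 2.3.3, scipy 1.17.1 and matplotlib 3.10.9 were used.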

Additional observations from a re-analysis of the deposited data

How the results depend on the processing

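Across 15 results, 142 of 156 recomputed values stayed within the interval of the main value (for the difference of medians, bounds combined from both intervals), or within 1.5 times for counts and densities, 14 moved and 0 reversed. Leaving out each autosome in turn moved none. Most of the 156 values were of this kind, and each kept most of the regions, so they had little room to move. All 14 moves were among the other settings. With an autosome left out, the share of higher regions stayed between 69.3 and 71.7%. The median widths stayed between 404 and 431 bp for higher and between 269 and 289 bp for lower regions. Their difference of 138 bp stayed between 118.5 and 151 bp. Placing regions by midpoint again gave 449 regions, 316 of them higher, and without the widest region the higher median was 418 bp. The share of higher regions, 70.4%, was 77.1% by base pairs, 78.1% for regions no narrower than 453 bp, the median of all listed regions, and 65.1% for clusters of same-direction regions within 100 kb. By base pairs, all listed regions gave 76.8% and the other autosomal ones 77.0%. Matching shares for the rest are not given here for the width cut or the clusters. The 78.1 and 65.1% can therefore not be set against the 68.1% of all listed regions. The cause of these moves was not tested. With 5 kb in place of 1 kb, gene ends held 25.6% of higher and 39.9% of lower regions, gene interiors 41.5 and 33.8%, and intergenic sequence 32.9 and 26.3%, which a wider end class gives by construction. With protein-coding genes alone, gene ends held 1.90% of higher regions, gene interiors 45.1% of lower regions, and intergenic sequence 47.5% of higher and 45.1% of lower regions, since fewer genes are used. Requiring at least 150 covered bases left 2 of the 4 promoter windows. In the first 10 Mb the higher median was 500.5 bp and the difference of medians 208.5 bp, over 1.5 times the main value though within its wide combined bounds of 23 to 268 bp. No paired analysis was possible because the lists hold no values per sample, and leaving out a replicate was not possible for the same reason.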

Other observations

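The microRNA cluster Mir290a to Mir295, the main microRNA locus of mouse embryonic stem cells, lies near the centromeric end of chromosome 7 (3218626 to 3220841) and held 0 regions. It was looked up after the other values had been seen. The nearest was a lower region of 219 bp, 52.2 kb before it, and the next a higher region of 386 bp, 83.9 kb before it. Of the 37 microRNA genes that the RefSeq microRNA table places in these stretches, 0 were overlapped by a region.

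The abundant nuclear long noncoding RNA genes Malat1 and Neat1, near the centromeric end of chromosome 19, also held 0 regions. Most genes here held none: of the protein-coding ones in these stretches, 18% held a region. Among noncoding genes with 2 regions, Gm16685 on chromosome 3, Gm35246 on chromosome 6 and Gm41664 on chromosome 18 each held 2 lower and 0 higher. Gm20619 on chromosome 6 and Gm40261 on chromosome 5 each held 2 higher and 0 lower, and Gm13391 on chromosome 2 held 1 of each. Some of these regions also count for a protein-coding gene, such as the lower one at Il7, which lies in Gm16685. All are read beside the 68.1% of higher regions among all listed regions.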
